A study of Mus musculus with 16 samples.

Results

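Liver and kidney are the organs that release newly made glucose into the blood during a fast, and their open chromatin was compared here in 2 liver and 2 kidney libraries of ATAC-seq, an assay in which a transposase cuts accessible DNA. The libraries are part of a set of 16 from 8 tissues. Adult male C57BL/6 mice either had free access to chow and water (fed) or had been without food for 24 h (fasting), and each library was made from the pooled tissue of 3 mice, so that a tissue has 1 library per state and the liver and kidney libraries of a state come from the same group of mice. The 2 libraries of a tissue therefore differ in feeding state, no mouse was sequenced alone, and the spread between mice was not measured. An exact permutation test of 2 libraries against 2 has only 6 arrangements and cannot give a two-sided p below 0.333, so the values are given as descriptions of these pools.

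A region entered the set of a library when its q, the false discovery rate given by the peak caller, was under 0.01. Regions of the 4 sets that overlapped were merged, which left 350097 merged regions. A liver-specific region held a set region of both liver libraries and was touched by no listed peak of either kidney library, which was true of 27690 of the 94463 liver regions found in both states (29.3%). The kidney-specific regions, chosen the other way round, numbered 51024 of 126970 (40.2%). Another 54120 regions held a region of all 4 sets and are called shared. Since peaks chose these classes, their presence and strength in liver and kidney are a description, whereas the other 6 tissues, the sequence and the place in the genome were not used in the choice.

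In gluconeogenesis, phosphoenolpyruvate carboxykinase (Pck1) and fructose-1,6-bisphosphatase (Fbp1) feed a pathway that glucose-6-phosphatase (G6pc) closes, in hepatocytes and in cells of the proximal tubule. The hepatocyte also secretes albumin (Alb) and runs the urea cycle, while the nephron reclaims solutes from the filtrate with transporters that differ from segment to segment, and its thick ascending limb secretes uromodulin (Umod). Active promoters are open in many cell types, and distal regions, where factors such as FOXA, ONECUT, HNF1, HNF4 and C/EBP proteins bind, usually differ more between tissues.

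The promoters of G6pc and Pck1, open in both organs, and of the markers Alb and Umod are shown first, because the comparison turns on the contrast between them. They were read from RefSeq promoters on GRCm38.p6, are written 5′ to 3′ on the gene's strand, and end before the annotated transcript. G6pc lies at chr11:101367466-101367560, Pck1 at chr2:173152823-173153047 and Alb at chr5:90460620-90460869, all on the plus strand, and Umod at chr7:119479283-119479512 on the minus strand. Capitals mark the binding letters of HNF1, a factor of both organs, in G6pc, Alb and Umod (GTTAATNATTAAC with up to 2 bases different), and the cAMP response element in Pck1 (TGACGTCA with up to 1 base different). Both strands were searched over the 250 bases before each RefSeq start. The HNF1 letters in this form occurred in 1.24% and the cAMP element in 10.6% of 32851 RefSeq promoters. These forms were chosen after values were seen.
G6pc promoter: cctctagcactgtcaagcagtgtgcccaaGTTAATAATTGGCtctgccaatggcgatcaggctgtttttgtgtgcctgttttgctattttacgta
Pck1 promoter: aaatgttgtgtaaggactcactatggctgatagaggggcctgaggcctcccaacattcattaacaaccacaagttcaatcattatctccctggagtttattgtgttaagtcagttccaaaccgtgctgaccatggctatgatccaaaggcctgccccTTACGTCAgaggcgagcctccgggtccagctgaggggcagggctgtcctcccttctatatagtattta
Alb promoter: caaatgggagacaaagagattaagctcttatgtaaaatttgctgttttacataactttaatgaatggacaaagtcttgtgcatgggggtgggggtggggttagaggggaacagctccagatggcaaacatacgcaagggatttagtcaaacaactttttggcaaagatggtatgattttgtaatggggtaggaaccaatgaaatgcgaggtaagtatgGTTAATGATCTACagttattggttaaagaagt
Umod promoter: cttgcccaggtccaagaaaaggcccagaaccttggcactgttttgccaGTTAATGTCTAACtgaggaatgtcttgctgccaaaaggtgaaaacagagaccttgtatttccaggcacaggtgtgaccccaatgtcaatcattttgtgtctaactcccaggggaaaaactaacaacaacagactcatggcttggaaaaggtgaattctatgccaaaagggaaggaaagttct

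The specific regions differed between the organs in the letters they held near the summit, the position of most reads in a peak. Each sequence shown next is the specific region of highest mean rank with the named motif within 50 bp of its summit, a choice made after values were seen. It covers 50 bp on both sides of the summit on GRCm38, on the strand where the motif reads forward, with the motif in capitals. The liver-specific examples carry the FOXA letters in a coding exon of Abcb4, a phospholipid transporter of bile, 167 bp from a start, the ONECUT letters in an intron of Msra, the C/EBP letters in an intron of Kcnk10, and a direct repeat read by nuclear receptors (DR1) in an exon of Sptbn5.
Liver-specific region with FOXA, chr5:8928509-8928609, minus strand: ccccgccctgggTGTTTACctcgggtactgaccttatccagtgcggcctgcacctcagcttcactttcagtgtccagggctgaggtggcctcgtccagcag
Liver-specific region with ONECUT, chr14:64194096-64194196, minus strand: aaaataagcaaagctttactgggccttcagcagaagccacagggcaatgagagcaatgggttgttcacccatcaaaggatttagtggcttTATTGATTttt
Liver-specific region with C/EBP, chr12:98502182-98502282, plus strand: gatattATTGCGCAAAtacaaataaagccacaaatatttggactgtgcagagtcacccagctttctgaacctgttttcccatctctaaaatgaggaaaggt
Liver-specific region with DR1, chr2:120059035-120059135, minus strand: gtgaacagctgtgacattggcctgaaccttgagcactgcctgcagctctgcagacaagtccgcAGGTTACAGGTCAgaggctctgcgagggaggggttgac

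The kidney-specific examples carry the HNF1 letters in an intron of Ralgapb, the HNF4 letters between genes, the TEAD letters in an intron of Snx29 and the POU letters 1036 bp from a start of Gga2, between genes. The lowest of the 8 examples in rank was that with HNF1, at 92.8 fed and 91.0 fasting.
Kidney-specific region with HNF1, chr2:158448180-158448280, plus strand: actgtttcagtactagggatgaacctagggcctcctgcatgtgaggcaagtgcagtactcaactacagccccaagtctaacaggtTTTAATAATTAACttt
Kidney-specific region with HNF4, chr11:10477854-10477954, minus strand: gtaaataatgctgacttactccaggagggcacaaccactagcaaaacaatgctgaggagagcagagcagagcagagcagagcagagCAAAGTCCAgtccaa
Kidney-specific region with TEAD, chr16:11365730-11365830, plus strand: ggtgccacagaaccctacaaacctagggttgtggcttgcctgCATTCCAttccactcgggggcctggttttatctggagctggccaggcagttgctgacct
Kidney-specific region with POU, chr7:122022208-122022308, plus strand: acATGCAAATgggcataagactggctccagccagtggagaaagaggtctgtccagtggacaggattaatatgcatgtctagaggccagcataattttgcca

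Rank is the measure used for strength: the percentile of a peak's p within its own list, from 0 to 100. Ranks were preferred because the libraries differed in depth. The deposited lists were of nearly equal length, from 299479 rows in fed liver to 299529 in fed kidney, and collapsing rows with several summits left 239804 and 217821 regions in fed and fasting liver and 165716 and 168856 in kidney. The background rate, in tags expected at a summit, was 2.80 and 2.82 in fed and fasting liver against 4.67 and 4.64 in kidney, and the median peak of a set had 15, 21, 45 and 40 tags at its summit in that order. Kidney libraries were thus the more deeply sampled, with 54.8 and 54.4 Mb in their sets against 37.7 and 38.6 Mb in liver. The kidney lists also ended before the q threshold was reached, at a −log10 q of 3.20 fed and 2.56 fasting, so weaker kidney peaks are not listed and some liver-specific regions may have one. The part of depth in the larger number of kidney-specific regions was not tested apart from other differences. Tags were thinned to the background rate of fed liver and peaks called again with p under 1e-05 for a set and 0.0001 for absence in place of q, which is called equal depth here although it matches that rate alone, and 22788 liver-specific and 37364 kidney-specific regions were left. With only the fasting or only the fed liver library in the rule the order turned, with 77183 and 112623 liver-specific against 57412 and 63107 kidney-specific regions.

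Markers of both organs were found where the labels place them. The Alb promoter ranked 85.5 fed and 86.7 fasting in liver, with 46 and 91 tags, and in kidney had no peak fed and a rank of 49.6, with 27 tags, fasting. The Umod promoter ranked 92.0 and 91.6 in kidney, with 198 and 188 tags, and had no peak in either liver library. The groups did not overlap for either gene. In the 12 libraries of the other 6 tissues the Alb promoter had no peak, and Umod had a peak only in fasting brown adipose tissue, at a rank of 25.0. In pieces of whole organ, fewer cells of a type and less accessibility per cell cannot be told apart, here and in every comparison that follows.

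Across the genome, liver and kidney were in the middle of the tissue pairs. The Jaccard index, shared length over joint length of 2 sets, was 0.293 ± 0.0389 (SD, n = 2 states) and stood at position 15 of the 28 tissue pairs. For liver it was the highest of 7 pairs, ahead of brown adipose tissue at 0.266, with spleen lowest at 0.209. For kidney, lung (0.319), white adipose (0.316) and brown adipose tissue (0.303) were higher. The fed and fasting libraries overlapped by 0.452 in liver and by 0.685 in kidney, more than the organs overlapped with each other.

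Tissue-specific regions lay mostly away from promoters, as all regions did. A summit within 3000 bp of an annotated start was seen in 24.9% of liver-specific regions (exact 95% binomial interval 24.3 to 25.4) and 26.4% of kidney-specific ones (26.0 to 26.7), against 46.6% of shared regions and 27.1% of all regions. These intervals cover counting error only, since regions of a library are not independent. Within 1000 bp the shares were 10.7%, 13.5% and 34.6% for liver-specific, kidney-specific and shared regions. The specific regions had a median width of 251 bp in liver and 279 bp in kidney, between the 170 bp of all regions and the 489 bp of shared regions. They lay at a median of 9109 and 8832 bp from a start, against 9045 bp for all and 3780 bp for shared regions. Their median GC content was 48.8% in both organs, 49.3% in all regions and 53.2% in shared regions. In the share within 3000 bp, the distance to a start and GC content the specific regions of both organs were thus near all regions. Within 1000 bp their shares were lower than that of all regions, and lowest in liver. The shared regions stood furthest apart.

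In their own organ, the liver-specific regions had a median rank of 68.8 fed and 68.1 fasting, with 18 and 24 tags at the summit. The kidney-specific regions had a lower median rank, 48.5 in both states, but more tags, 42 fed and 37 fasting. The median fold over background was 3.95 and 4.37 in liver and 4.45 and 4.05 in kidney, nearly the same, so the order of the organs depends on the scale. Shared regions were stronger on each scale, with median ranks of 84.7 and 83.1 in liver and 77.0 and 78.1 in kidney.

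In each library of the other tissues, which had no part in the choice, fewer of the specific than of the shared regions had a peak. No peak of the other 6 tissues touched 10701 liver-specific regions (38.6%) and 20658 kidney-specific regions (40.5%), against 7.19% of shared regions and 40.8% of all regions of the pair. The specific regions thus stood near all regions in this share alone. All 6 tissues had a peak at 3.53% and 4.704% of the specific regions, below the 12.4% of all regions, and at 57.6% of the shared ones. By library, liver-specific regions were met by a peak in 17.6% (fasting spleen) to 25.4% (fasting white adipose tissue). For kidney-specific regions the range was 15.8% in fasting spleen to 29.4% in fed white adipose tissue, and the last value stood apart from that of fasting white adipose tissue, 18.7%. All regions ranged from 24.4% in fasting spleen to 28.4% in fed white adipose tissue. Only 3891 of the shared regions were found in liver and kidney and in no other tissue.

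**Figure D1:**
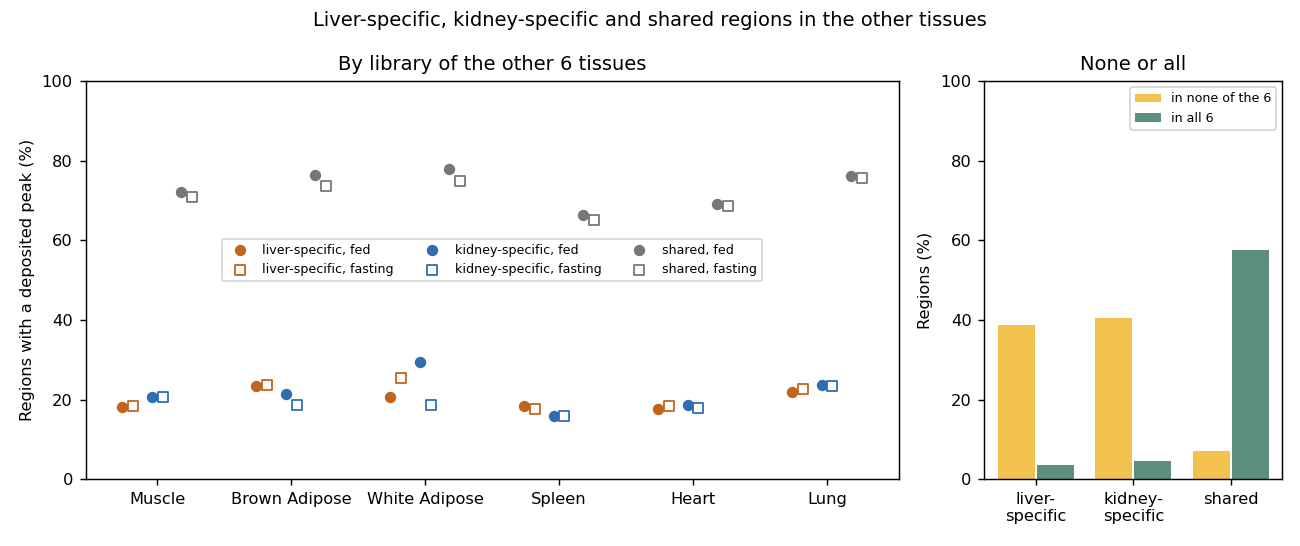
Percentage of liver-specific (orange), kidney-specific (blue) and shared regions (grey) touched by a deposited peak in each fed (filled circle) and fasting (open square) library of the other 6 tissues, and at right the percentage touched in none or in all of the 6. Specific regions lie between 15.8% and 29.4% in each library, far below the shared regions, and the widest distance between the states is for kidney-specific regions in white adipose tissue (29.4% fed, 18.7% fasting).

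The promoters of the gluconeogenic pathway were open in both organs, and none was called different. A promoter's rank is the highest among listed peaks with a summit within 3000 bp of any annotated start of the gene, 0 where there is none, and a promoter was called when its lowest rank in an organ stood at least 20 points above its highest in the other. Of 21938 protein-coding genes, 1038 (4.73%) were called higher in liver and 836 (3.81%) in kidney. Which organ had more turned with the setting, since 800 and 926 were called within 1000 bp and 888 and 942 at equal depth. Of the 18 genes of the gluconeogenesis list 0 were called either way, also with a 1000 bp window, with fold in place of p, and at equal depth. With 18 genes a count of 0 is near the 4.73% and 3.81% of all genes. Each of the 18 had a peak in all 4 libraries, against 15045 of all genes (68.6%), and their median rank was 97.1 and 96.2 in fed and fasting liver and 95.5 and 94.6 in kidney, against medians of 87.9 to 89.0 over all genes.

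G6pc, which frees glucose from its phosphate, ranked 88.1 fed and 88.0 fasting in liver and 89.1 and 84.6 in kidney, so the groups overlapped. In fed kidney the highest peak near G6pc lay 2738 bp upstream of the start, between genes. Within 1000 bp of the start the ranks were 88.1 and 88.0 in liver and 85.9 and 84.6 in kidney, without overlap. Pck1, which makes phosphoenolpyruvate from oxaloacetate, ranked 94.2 and 86.4 in liver and 81.7 and 84.9 in kidney. Both liver values lay above those of kidney, but the nearest were 1.501 points apart, less than the liver states were from each other. Fbp1 ranked 96.3 and 97.5 in liver and 94.1 and 93.2 in kidney, again without overlap but a few points apart. The fed kidney value of Fbp1 was that of a peak in an intron, 17517 bp downstream of the most upstream start. At that start fed kidney ranked 92.8. In tags over background, which depend on the quality of a library, the order was another: G6pc stood at 19.3 and 32.3 in liver and at 54.6 and 41.9 in kidney, and Pck1 at 28.2 and 63.1 against 40.2 and 45.7. Among 8414 promoters that ranked 90 or more in every library the same measure had medians of 23.2, 45.7, 67.4 and 66.2, so it was lower in liver for strong promoters in general.

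The glucose-6-phosphate transporter Slc37a4, partner of G6pc, ranked 98.1 in both liver libraries and 95.7 and 97.5 in kidney. The ubiquitous phosphatase G6pc3 was the lowest of the list, at 77.2 and 86.2 in liver, below its 89.6 and 91.3 in kidney. Pyruvate carboxylase (Pcx), at the entrance of the pathway, ranked 96.0 and 95.3 in liver and 93.6 and 95.1 in kidney. Mitochondrial Pck2 ranked 98.5 to 99.1 in the 4 libraries, and the muscle isozyme Fbp2 97.0 and 88.7 in liver and 95.2 and 93.5 in kidney. The remaining genes, which also serve glycolysis or the shuttling of malate and aspartate (Got1, Mdh1, Mdh2, Gpi1, Tpi1, Pgk1, Eno1, Pgam1 and Gapdh), ranged from 89.7 for Got1 in fasting kidney to 99.8 for Mdh1 in fed liver. Counting bare order, ranks did not overlap and were higher in liver for 6 of the 18 genes (Pck1, Fbp1, Pcx, Slc37a4 and Gapdh among them) and higher in kidney for 2 (G6pc3 and Pgam1), beside 23.3% and 25.5% of all genes. This order was not stable: ranked by fold, the mean difference of liver minus kidney turned from 6.97 to -3.86 points for Pck1, from -8.689 to 1.197 for G6pc3 and from -1.59 to 8.67 for Pgam1, and it changed sign for 7 of the 18 genes.

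**Figure D2:**
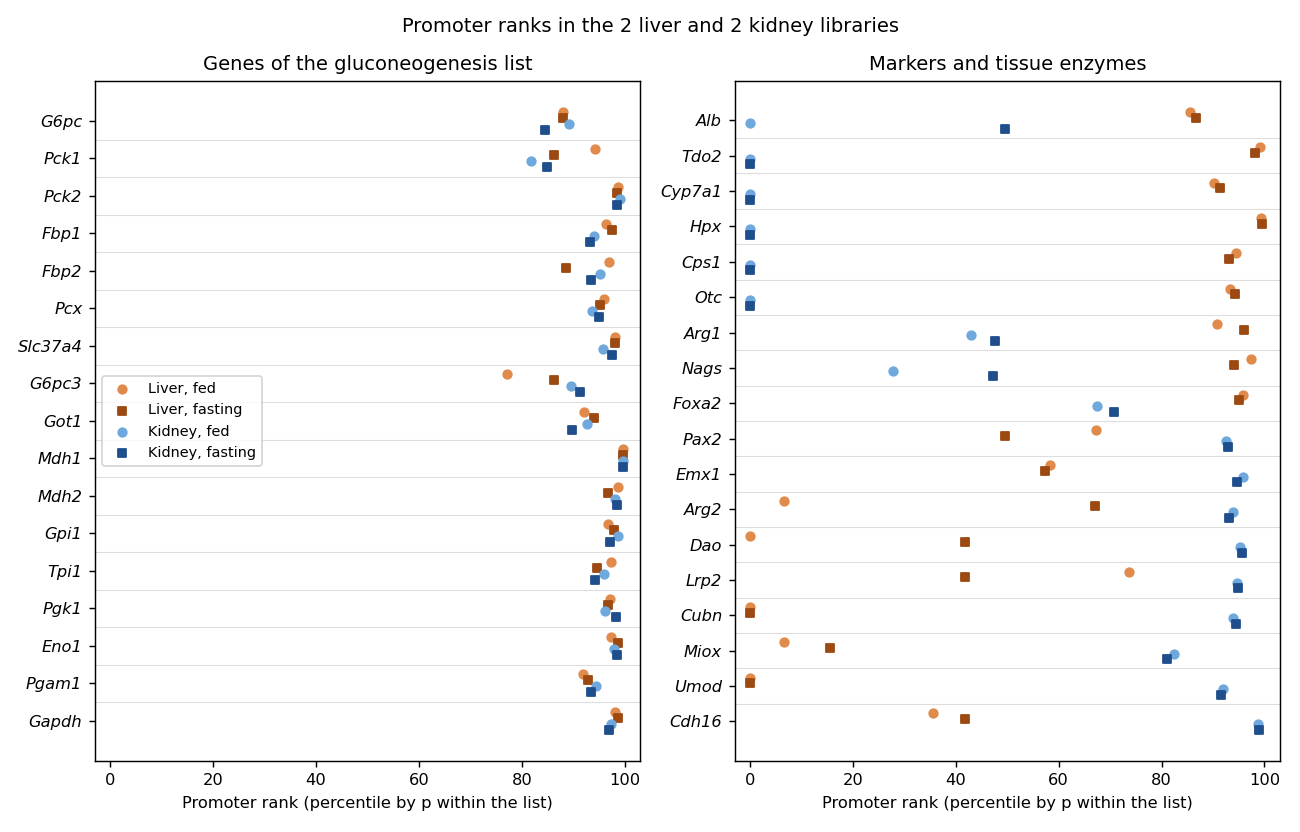
Promoter rank, the percentile by p within a list, in fed and fasting liver (orange) and kidney (blue) for genes of the gluconeogenesis list (left) and for markers and tissue enzymes (right). At left all points lie between 77.2 and 99.8 and the organs run together, while at right Alb, Tdo2 or Cps1 and Umod or Cubn lie at 85.5 or more in their own organ and reach 0 in the other. The genes at right were picked from those called different, so their separation follows from the choice. Members of the same lists that were not called, such as Apoa1 and Slc34a1, are not drawn.

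Of 12 regulators of the pathway 0 were called at the main setting, which is near the 4.73% and 3.81% of all genes, and 1 was called higher in liver at equal depth. The coactivator Ppargc1a ranked 89.2 and 87.9 in liver and 87.3 and 89.1 in kidney, and the insulin receptor Insr 98.5 and 96.9 against 98.8 and 98.3. The groups overlapped for both. The widest distances were those of the glucagon receptor Gcgr, 94.6 and 97.7 in liver against 66.8 and 79.7 in kidney, and of Creb3l3, a fasting-responsive factor of liver, 89.8 and 94.4 against 69.6 and 73.2. The glucocorticoid-responsive factor Klf15 was the other way round, at 89.0 and 90.6 in liver and 92.1 and 95.8 in kidney. Ranks did not overlap for 5 regulators with liver higher and for 3 with kidney higher (Creb1, Klf15 and Sirt1), beside 23.3% and 25.5% of all genes. The count in kidney is near that share.

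Around these shared promoters the distal regions were of both kinds. Within 50 kb of a start, Pck1 had 8 liver-specific and 9 kidney-specific regions, from 16226 bp upstream to 13477 bp downstream of the start in liver and from 24460 bp upstream to 29006 bp downstream in kidney. In liver 6 of the 8 lay upstream, and in kidney 7 of the 9 lay downstream. The strongest liver-specific region, chr2:173143564-173143950, lay 9345 bp from the start between genes and ranked 93.5 fed and 96.0 fasting. The strongest kidney-specific region, chr2:173177841-173178391, lay 25026 bp away on the other side and ranked 89.1 and 90.9. The other 6 tissues had no peak at 3 of the liver-specific and 2 of the kidney-specific regions of Pck1.

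G6pc had 3 liver-specific and 5 kidney-specific regions within 50 kb. The strongest of each lay close together downstream: chr11:101391201-101391474 ranked 71.8 fed and 85.7 fasting in liver, 23732 bp from the start, and chr11:101389388-101389874 ranked 73.2 and 77.2 in kidney, 22018 bp from it. Fbp1 had 5 and 6. Over the 18 genes the mean was 2.83 liver-specific and 4.39 kidney-specific regions per gene, against 1.92 and 3.78 over all genes. The regulators had 4.67 and 7.42, with Ppargc1a at 1 liver-specific and 18 kidney-specific regions, Cebpb at 9 and 21, and Insr at 12 and 11. Genes that share a neighbourhood can count the same region.

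**Figure D3:**
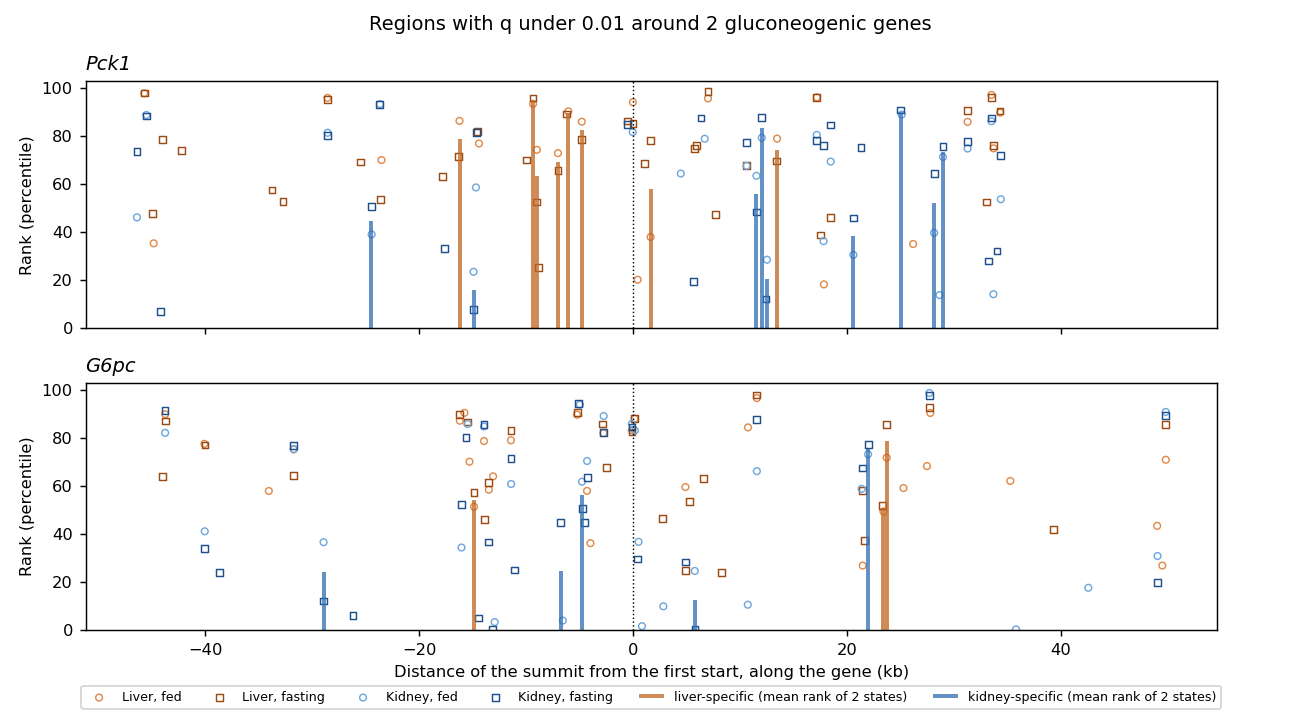
Rank of each region with q under 0.01 by distance from the start of Pck1 (top) and G6pc (bottom), in kb along the gene, for fed (circles) and fasting (squares) liver and kidney, with bars at the specific regions as high as their mean rank over both states. Liver-specific bars of Pck1 gather upstream (6 of 8) and kidney-specific bars downstream (7 of 9), while points of all 4 libraries meet at both starts.

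Hepatocyte genes parted from the nephron at the promoter as well. Of 30 hepatocyte genes 15 were called higher in liver and 0 in kidney, beside 4.73% and 3.81% of all genes, and with a 1000 bp window, by fold and at equal depth 22, 10 and 15 were. Tdo2, which opens tryptophan breakdown, ranked 99.1 fed and 98.1 fasting in liver and had no peak in kidney. Cyp7a1, the rate-limiting enzyme of bile acid synthesis, ranked 90.2 and 91.3 in liver, and hemopexin (Hpx) 99.3 and 99.6, both with no kidney peak. Prothrombin (F2) ranked 97.0 and 96.5 in liver against 32.9 and 17.0 in kidney, and the bile salt export pump Abcb11 94.5 and 95.6 against 42.9 and 2.94. Mat1a, which makes S-adenosylmethionine, and tyrosine aminotransferase (Tat) also had no kidney peak, with 89.7 and 95.6 and with 87.2 and 89.1 in liver. These groups were far apart in both states.

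Not all hepatocyte genes stood apart. Apoa1, of high-density lipoprotein, ranked 97.6 and 96.2 in liver and 96.4 and 95.9 in kidney, and Apoa2 ranked higher in kidney, at 99.7 and 99.4 against 95.48 and 95.05. The fibrinogen chain Fga ranked 98.5 and 98.4 in liver and 96.0 and 95.4 in kidney, while Fgb stood at 81.8 and 90.3 against 52.0 and 46.8. Cyp2e1 overlapped, with 74.4 and 81.4 in liver and 85.1 and 78.4 in kidney. A peak near a start can belong to a neighbouring gene, and this was not tested gene by gene. Around the promoter the difference was plain, with a mean of 9.93 liver-specific regions per hepatocyte gene within 50 kb against 1.92 over all genes, and 2.43 kidney-specific ones against 3.78. Alb had 22 liver-specific regions and 1 kidney-specific region, the strongest at chr5:90476585-90478145 with ranks of 99.03 fed and 97.1 fasting.

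Promoters of proximal tubule genes were called higher in kidney for 8 of 16 genes and higher in liver for 0, beside 3.81% and 4.73% of all genes. With the 1000 bp window 10 were called, by fold 5 and at equal depth 9. Cubilin (Cubn), the receptor that takes up filtered protein, ranked 93.9 fed and 94.5 fasting in kidney and had no peak in liver. Its partner megalin (Lrp2) ranked 94.7 and 94.9 in kidney against 73.8 and 41.7 in liver. The lactate transporter Slc5a12 stood at 74.3 and 83.0, the organic anion transporter Slc22a8 at 74.3 and 83.1 and the urate transporter Slc22a12 at 79.9 and 80.2 in kidney, and none of the 3 had a liver peak. Miox, which oxidises inositol, ranked 82.4 and 81.1 against 6.63 and 15.5, and the water channel Aqp1 95.5 and 97.2 against 71.9 and 61.2. The phosphate transporter Slc34a1 overlapped, with 95.01 and 91.38 in kidney and 93.0 and 90.4 in liver, and the bicarbonate transporter Slc4a4 was higher in liver, at 94.7 and 96.8 against 91.9 and 92.6. Within 50 kb, proximal tubule genes had a mean of 15.1 kidney-specific regions, with 45 at Lrp2, and 2 liver-specific ones.

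In the thick ascending limb 3 of 6 genes were called higher in kidney, beside 3.81% of all genes, 5 with the 1000 bp window and 2 by fold. Beside Umod these were the chloride transporter Slc12a1, with 76.6 and 81.8 against 6.63 fed and no peak fasting in liver, and the potassium channel Kcnj1, with 86.0 and 91.5 against 62.1 and 15.5. Egf was higher in liver, at 99.5 and 97.8 against 84.7 and 80.4. In the distal convoluted tubule 1 of 6 was called, and 0 with the 1000 bp window. It was the calcium channel Trpv5, with 79.2 and 77.2 in kidney and none in liver. In the collecting duct 3 of 12 were called higher in kidney, beside 3.81% of all genes. There the water channel Aqp2 had 41.8 and 56.5 against 6.63 and no peak, the vasopressin receptor Avpr2 51.1 and 68.6 against no peak, and Cdh16, a cadherin of the whole tubule, 98.8 and 98.9 against 35.5 and 41.7. The proton pump subunit Atp6v0d2 was called higher in liver, but 0 genes of this list were with the 1000 bp window or by fold. Of 6 podocyte genes 0 were called higher in kidney, and nephrin (Nphs1) was called higher in liver, at 96.2 and 97.5 against 51.6 and 38.0, with summits of the organs at different annotated starts. The differences between segments were not tested. With 6 or 12 genes a count of 0 or 1 is near the 3.81% of all genes called higher in kidney and the 4.73% in liver. The Umod gene had 11 kidney-specific and 3 liver-specific regions within 50 kb, the strongest at chr7:119511098-119511719 in an intron of Pdilt, with ranks of 94.2 and 95.9.

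**Figure D4:**
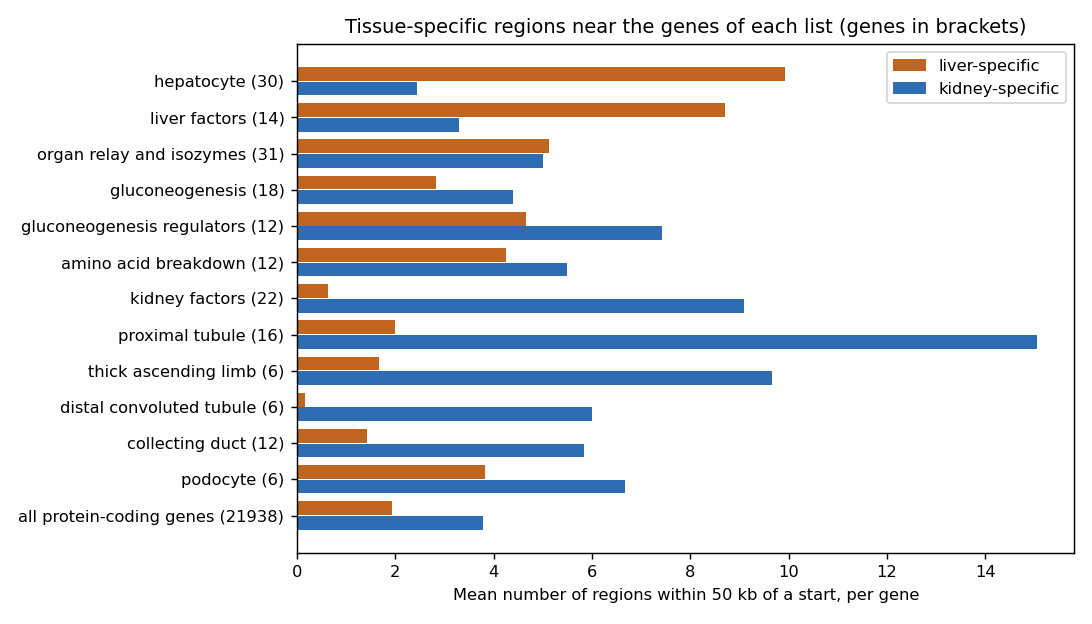
Mean number of liver-specific (orange) and kidney-specific (blue) regions within 50 kb of a start per gene, for 12 gene lists with their number of genes in brackets and for all 21938 protein-coding genes. Hepatocyte genes have 9.93 liver-specific and proximal tubule genes 15.1 kidney-specific regions, whereas gluconeogenesis genes, at 2.83 and 4.39, lie near all genes at 1.92 and 3.78.

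Enzymes of the urea cycle and other steps that the organs divide between them held both called and shared promoters. The urea cycle begins with Nags, Cps1 and Otc. Cps1 ranked 94.5 fed and 93.2 fasting and Otc 93.3 and 94.3 in liver, both with no peak in kidney, and Nags ranked 97.4 and 94.1 against 27.8 and 47.2. Ass1 and Asl, the middle steps that kidney uses to make arginine, were open in both organs, at 96.8 and 98.2 against 93.4 and 91.0 and at 94.2 and 95.1 against 93.87 and 89.99. At arginase the isozymes changed places. Arg1 ranked 90.8 and 96.0 in liver and 42.9 and 47.7 in kidney, and Arg2 ranked 93.8 and 93.0 in kidney and 6.63 and 67.1 in liver. Arg1 had 20 liver-specific and 0 kidney-specific regions within 50 kb, and Arg2 had 0 and 6. Igf1, the growth factor that liver secretes, stood at 88.7 and 86.0 against 55.9 and 52.3. Of the 31 genes of this list 5 were called higher in liver and 1 in kidney, beside 4.73% and 3.81% of all genes, and with the 1000 bp window 6 and 2. The count in kidney is near the share of all genes.

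Hexokinase and the hormone relays differed in order but were not called. Hk1, which traps glucose as its phosphate, ranked 84.5 and 83.0 in liver and 95.5 and 94.8 in kidney. Vitamin D is hydroxylated by Cyp2r1 in liver and Cyp27b1 in kidney, and these ranked 95.3 and 95.1 against 92.1 and 90.5 and 69.5 and 75.4 against 82.5 and 80.4, in the order liver, kidney. Creatine is begun in kidney by Gatm, at 86.0 and 87.1 there and 78.5 and 70.5 in liver. Erythropoietin (Epo), a hormone of kidney and fetal liver, ranked 83.1 and 89.6 in liver and 94.0 and 92.8 in kidney. Renin (Ren1), a product of kidney, went the other way, at 93.2 and 98.0 in liver and 86.8 and 85.9 in kidney. In the breakdown of amino acids 1 of 12 genes was called in each direction, serine dehydratase (Sds) with 80.7 and 85.6 in liver against 0.895 and no peak, and D-amino acid oxidase (Dao) with 95.3 and 95.7 in kidney against no peak and 41.7. With 12 genes a count of 1 is near the 4.73% and 3.81% of all genes.

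Some transcription factors of the liver list stood higher in liver, and others were open in both organs. Of 14 factors 4 were called higher in liver and 0 in kidney, beside 4.73% and 3.81% of all genes. For 11 the ranks did not overlap with liver higher, beside 23.3% of all genes. By fold, 2 were called. Foxa1 ranked 91.6 and 90.7 in liver and 59.6 and 64.1 in kidney, and Foxa2 95.8 and 95.1 against 67.4 and 70.7. The nuclear receptors Nr1i3 and Nr0b2 stood at 84.4 and 93.8 against no peak and 63.5, and at 96.2 and 86.3 against 37.6 and 32.0. Hnf4a ranked 99.32 and 99.05 in liver and 87.42 and 94.98 in kidney. This nuclear receptor serves both organs. Liver factors had a mean of 8.71 liver-specific and 3.29 kidney-specific regions within 50 kb.

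Of 22 kidney factors 3 were called higher in kidney (by fold 0), beside 3.81% of all genes. For 12 the ranks did not overlap with kidney higher, beside 25.5% of all genes. Pax2, which builds the nephric duct, ranked 92.5 and 92.9 in kidney and 67.2 and 49.6 in liver. Emx1 ranked 95.8 and 94.7 against 58.4 and 57.4, and Sim1 84.2 and 83.3 against 38.0 and 53.5. Pax8 was closer, at 89.9 and 91.1 against 82.2 and 82.7. Distal regions set this list apart more than promoters, with a mean of 9.09 kidney-specific regions and 0.636 liver-specific ones, 25 and 0 at Pax2 and 21 and 0 at Pax8.

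Known genes of the hepatocyte and of the tubule were among the promoters with the widest gap between the organs, beside genes with no such known role. In liver, with no kidney peak in either state, they were 4931428L18Rik, Tdo2, the glucuronosyltransferase Ugt2b35, the carboxylesterase Ces3a, the iron regulator Hfe2, the cytochrome Cyp2d10, Apoc4 with the overlapping Gm44805, the protease Tmprss6 and the amylase Amy1, with ranks from 96.6 to 99.2. In kidney they were ccdc198 (98.7 fed, 99.3 fasting), Kif12, the potassium channel Kcnj16, H1fnt, Gm47995, Cubn, Gpr179, Umod, the brush border protein Vil1 and Dleu7, from 91.0 to 99.3 with no liver peak. In the 12 libraries of other tissues Ugt2b35 had no peak, Ces3a had 1, ccdc198 had 1 and Kif12 had 2, whereas Tmprss6 had a peak in all 12, Gpr179 and Vil1 in 11, and 4931428L18Rik and Amy1 in 10. A peak in 1 organ only of this pair was therefore not, for several of these genes, a mark of that organ in the wider set.

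Of the 1038 promoters called higher in liver, 568 had no listed peak in either kidney library, and of the 836 called in kidney 278 had none in liver. The kidney lists ended at a −log10 p of 5.07 fed and 4.41 fasting, those of liver at 3.79 and 3.16. Over all genes 5746 and 5700 promoters had no listed peak in fed and fasting kidney, against 4706 and 4998 in liver. The part of list length in the 568 and 278 was not tested. Among the 18539 promoters with a peak in any of the 4 libraries, ranks differed by a median of 2.50 points between fed and fasting liver. The median was 0.886 points between the kidney states. Between the organs it was 3.45 points in the fed and 2.51 points in the fasting state. Most of these promoters thus moved little between the organs, and in liver about as much between states. Counted within 1000 bp of a start, 602 of the 1038 (58.0%) and 636 of the 836 (76.1%) were still called.

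Counting each specific region at its nearest start, some genes gathered large numbers. In liver Cps1 led with 48 regions, and kidney had 1 there. Adgrl2 (47), the adenosine kinase Adk (40), the nuclear receptor Nr5a2 (35), Dpyd (34), Pid1 (34), Foxa2 (33), Lpp (32), Foxp1 (31) and Pik3r1 (31) followed. Several of these genes also gathered kidney-specific regions, 30 at Lpp, 26 at Adgrl2, 26 at Pik3r1 and 16 at Foxp1. The others had at most 4. In kidney the transcription factor Glis3 led with 91 and had 0 liver-specific regions, and its promoter ranked 96.3 and 96.7 in kidney against 26.9 and 67.1 in liver. Pde4d (73), Tns1 (62), Auts2 (61), the nuclear receptor Esrrg (58), Mast4 (58), Trabd2b (57), Zfp608 (57), Lrmda (54) and Agap1 (50) came next. At these genes the liver-specific regions numbered from 2 at Trabd2b to 19 at Zfp608. Counts of this kind grow with the space around a gene, and within 50 kb Cps1 had 28 regions and Glis3 56.

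The 5 strongest specific regions of each organ lay at promoters and away from them. In liver the highest mean rank was that of chr1:24613150-24616169, and all 2991 of its 30-base words (100%) also occur in the mitochondrial genome, so reads of the 2 places cannot be told apart. Next were chr10:10579830-10580233, between genes 21658 bp from Rab32, with ranks of 99.7 and 99.9 and 99 and 218 tags, and chr10:30132307-30132702, between genes near Cenpw. The coding exon of Abcb4 at chr5:8928444-8928841 followed, with 99.8 and 99.6, and then chr1:59368032-59368577, between genes near Cdk15. In kidney chr5:117764363-117765002, in an intron of Ksr2 and 16275 bp from a start of Nos1, ranked 99.4 and 99.7. It was followed by chr4:141052985-141054363 at Crocc, where all 6 other tissues had a peak, by the ccdc198 promoter at chr14:49245016-49245878, by an intron of Enox1 at chr14:77484906-77485537 and by the Cdh16 promoter at chr8:104623779-104625134, 5 bp from the start. Within 3000 bp of an annotated start lay, in kidney, the regions at Crocc (162 bp), ccdc198 (137 bp) and Cdh16. In liver they were those at Abcb4 (167 bp) and of mitochondrial words (337 bp).

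Motif letters, which the choice of regions did not use, separated the organs. Letters were searched on both strands within 100 bp of the summit. FOXA letters (TGTTTAC) occurred in 6.57% of liver-specific, 2.70% of kidney-specific and 3.24% of all regions, and ONECUT letters (TATTGATT) in 3.26%, 0.298% and 0.762%. C/EBP letters (ATTGCGCAAT, up to 1 base different) occurred in 0.831%, 0.0843% and 0.236%, and the direct repeat DR1 (AGGTCANAGGTCA, up to 1 base different) in 1.77%, 0.780% and 0.883%. These 4 were more frequent in liver-specific regions than in kidney-specific, shared and all regions.

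In kidney-specific regions the higher shares were those of TEAD, HNF4, POU and HNF1 letters. TEAD (CATTCCA) occurred in 5.52% of kidney-specific, 3.48% of liver-specific and 3.86% of all regions, and HNF4 (CAAAGTCCA) in 1.86%, 0.982% and 0.971%. POU letters (ATGCAAAT) occurred in 1.38%, 0.787% and 0.864%, and HNF1 letters (GTTAATNATTAAC, up to 1 base different) in 0.758%, 0.278% and 0.369%. HNF1 letters were as frequent in shared regions, at 0.774%, as in kidney-specific ones. The direct repeat and the HNF4 letters, both read by nuclear receptors, thus leaned to different organs. The difference for each of these 8 kept its sign within 50 bp, in regions far from starts and among regions of q under 1e-06.

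The remaining letters showed smaller or no differences between the organs, or marked the shared regions. AP-1 (TGANTCA) stood at 7.88% in liver-specific and 7.59% in kidney-specific regions, a difference of 0.293 points that is smaller than its counting error of 0.550 points. ESRR (TCAAGGTCA) stood at 0.708% and 0.809%, also within counting error. ETS (CCGGAAGT) and NRF1 (GCGCATGCG), common at promoters, occurred in 0.271% and 0.0361% of liver-specific, 0.259% and 0.0921% of kidney-specific and 1.56% and 0.687% of shared regions. AP-2 (GCCNNNGGC) was more frequent in shared regions, at 12.04%, than in liver-specific (6.71%) or kidney-specific ones (7.44%). GRHL (AACCGGTT) was rare, at 0.0469% and 0.137%. A match is a description of the letters and not a site where a factor was shown to bind.

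**Figure D5:**
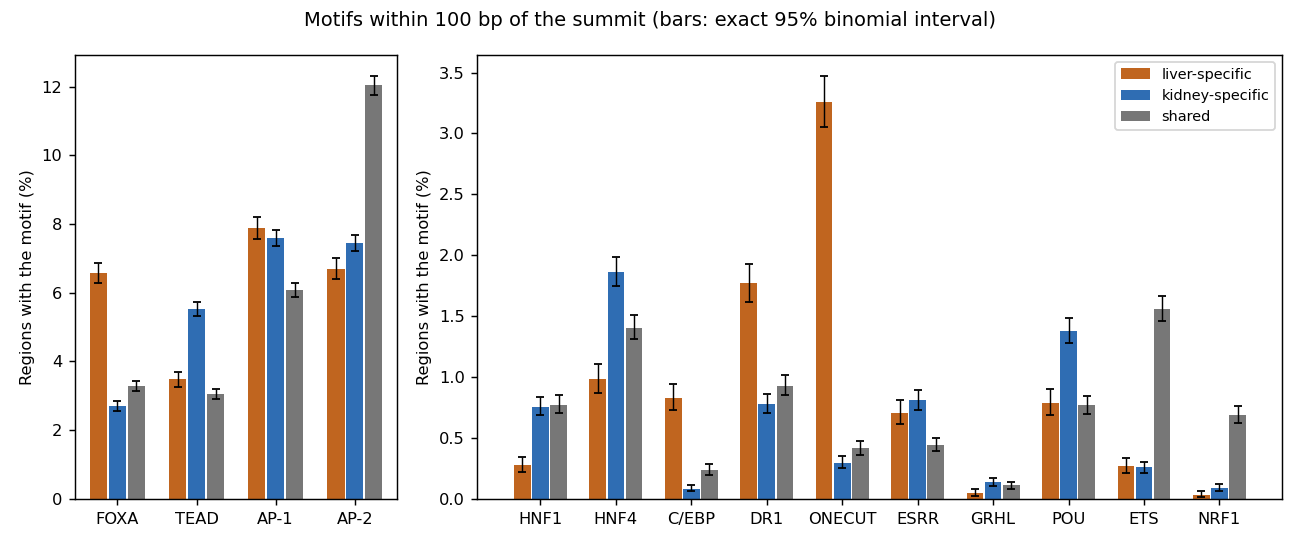
Percentage of liver-specific (orange), kidney-specific (blue) and shared (grey) regions with each motif within 100 bp of the summit, on separate scales for frequent (left) and rarer motifs (right), with exact 95% binomial intervals that cover counting error only. FOXA (6.57%), ONECUT (3.26%), C/EBP and DR1 are highest in liver-specific regions, and TEAD (5.52%), HNF4 and POU in kidney-specific ones.

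Cell types other than hepatocyte and tubule may be in whole pieces of organ, and their markers are given beside these results. Over all genes 4.73% were called higher in liver and 3.81% in kidney. With 5 or 6 genes a count of 0 or 1 is near those shares. Of 6 endothelial genes 2 (Pecam1 and Cdh5) were called higher in liver, and their mean rank was 73.9 and 71.8 in liver against 46.5 and 52.1 in kidney. Of 6 leukocyte genes 1 was (Itgam), with means of 41.4 and 30.2 against 15.4 and 13.5, and Cd3e had no peak in any of the 4 liver and kidney libraries. Of 5 Kupffer cell genes 2 were (Cd5l and Marco), with means of 24.04 and 22.73 against 0 in both kidney libraries, while Vsig4 was at 0 in all 4. Of 5 bile duct genes 2 were called higher in kidney (Krt7 and Krt19, keratins that tubules also express), with means of 46.1 and 48.9 in liver against 70.4 and 77.2. The part of these cells in the differences between the organs was not tested.

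Markers of tissue that could adhere to a piece were mixed. Of 6 adrenal cortex genes 2 were called higher in liver (Cyp11b2 and Star), but Cyp11b1, Cyp11a1 and Mc2r were at 0 in all 4 libraries, and the means were 31.7 and 40.7 in liver and 20.8 at most in kidney. Of 5 exocrine pancreas genes 1 was called higher in liver (Cela2a), with Cpa1 and Cel at 0 throughout. Of 5 adipocyte genes Adipoq was called higher in liver and Lep in kidney, with means of 69.2 and 69.7 against 51.0 and 55.9. Of 5 stellate cell, 5 erythroid and 5 skeletal muscle genes, 0, 0 and 1 were called higher in liver and 1, 1 and 1 in kidney. With 5 or 6 genes a count of 0 or 1 is near the 4.73% and 3.81% of all genes.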

How the data were processed

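The authors deposited, for each ATAC-seq library, a narrowPeak list made with Bowtie2 and MACS2 on GRCm38, per the submitters' processing notes, with versions not given in the sources used here. Each row of a list holds a peak with a fold (ratio) over background, a −log10 p and a −log10 q as the authors' caller gave them, and the summit's offset. Each deposited list stands for 1 library of 3 pooled mice. Reads and coverage tracks were not used here.

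Rows with equal ends were collapsed to the strongest summit. Regions with q under 0.01 made up a set, and overlaps of 1 bp counted. Rank was the within-list percentile of −log10 p over all listed regions. Tags at the summit were solved from the fold and p, and came out whole (tolerance 0.001) for 100%, 99.99%, 99.97% and 99.96% of values in fed and fasting liver and fed and fasting kidney. As an alternative, tags were thinned to the background rate of fed liver and regions kept at a p under 1e-05 (0.0001 for absence), called equal depth. Starts came from GENCODE vM21 on GRCm38 (132629 positions), and no listed peak ran past a chromosome end. Motifs were searched within 100 bp of the summit. The solving of tags, the interval operations, the rule for calling promoters and the motif search were tested on simulated data. The other steps were not tested in this way.

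Named genes were Alb, Umod and genes of the lists, the 10 promoters of widest gap and the 10 genes with most nearest specific regions in each organ, and genes at the 5 strongest specific regions. A few members of the lists enter the counts, medians and means but are not reported here by name. Members and lists were chosen with earlier results of these data known, so no pattern is independent support. Libraries were compared in the groups Liver and Kidney, with no test across features. Alternatives were q under 1e-06, the 50000 strongest regions, 50% overlap, a 1000 bp window, gaps of 10 and 40 points, fold in place of p, equal depth and leaving out each library. Intervals are exact 95% binomial and cover counting error only. Tables were handled with pandas 2.3.3 and numpy 2.4.6 under Python 3.11.15, intervals came from scipy 1.17.1, genome sequence was read with pysam 0.24.0 and plots were drawn with matplotlib 3.10.9.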

Additional observations from a re-analysis of the deposited data

How the results depend on the processing

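The counts of specific regions depended on the threshold, and more were kidney-specific than liver-specific except where a liver library was left out. Liver-specific regions, 27690 at the main setting, numbered 10131 at q under 1e-06, 6212 among the 50000 strongest and 43030 at 50% overlap, and kidney-specific regions, 51024, numbered 32532, 8648 and 76289. With each library left out in turn, liver-specific regions ranged from 30094 to 112623 and kidney-specific regions from 57412 to 80020. Without fed and without fasting liver the counts were 77183 liver-specific against 57412 kidney-specific and 112623 against 63107, and without fed and fasting kidney the kidney-specific regions came to 80020 and 79303. A single library sets fewer conditions on its own organ. The Jaccard index was 0.333 among the 50000 strongest and 0.265 to 0.320 with a library left out. Promoters higher in liver, 1038 at a gap of 20 points, numbered 1637 at 10 and 548 at 40, and those higher in kidney, 836, numbered 1341 and 387. With a library left out they ranged from 1185 to 2101 and from 965 to 1255, both highest without fasting liver. Promoter shares of liver-specific regions were 10.7% within 1000 bp and 26.0% at q under 1e-06. Those of kidney-specific regions were 13.5%, 25.8% and, among the 50000 strongest, 23.2%, and those of shared regions 34.6%, 52.2% and 61.9%. With other tissues' peaks also held to q under 0.01, 41.6% of liver-specific and 43.0% of kidney-specific regions had none. Of the 10 leading genes by nearest regions, 2 in liver and 3 in kidney remained when regions within 50000 bp were counted. The causes were not tested, beyond what the settings do by construction. No paired analysis was possible because the results come from no test and the 2 states give 2 pairs of libraries, too few for one, so the values of both states are given side by side. Of the other values 131 stayed within their spread or within 1.5 times of their count and 61 did not. Of all differences 12 took the other sign, none of them a called one: 10 at gluconeogenesis promoters (7 by fold, 2 at equal depth and 1 within 1000 bp) and 2 of 42 for motifs. A region with no listed peak is not shown to be closed.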

Other observations

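Promoters of the gene lists called higher in kidney than in liver had a higher mean rank in fed than in fasting white adipose tissue. They include those of the bile duct genes Krt7 and Krt19 and of the adipocyte gene Lep. The share over all promoters was not counted. Of the 26 promoters of the gene lists called higher in kidney than in liver, 13 ranked higher in the fed and 3 in the fasting white adipose library and 10 were equal, with means of 44.6 and 23.0. Of the 37 called higher in liver the numbers were 10, 14 and 13, with means of 25.4 and 25.2. Pax2 ranked 86.6 fed and had no peak fasting, Cdh16 83.7 and none, Krt7 88.6 and none, and Kcnj1 86.3 and 22.8. Genes of the proximal tubule were mixed. Lrp2 (74.4 fed, 38.1 fasting) and Aqp1 (69.5, 57.3) ranked higher fed, Slc22a12 ranked lower fed (78.0) than fasting (94.4), and Cubn, Miox, Slc22a8, Slc5a12 and Slc7a13 had no peak in either, nor had Slc12a1 and Umod of the thick ascending limb. Each value is of 1 library, and the background rate was 10.02 tags in the fed and 5.87 in the fasting library. What sets the libraries apart was not tested.

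The gluconeogenesis list had a mean promoter rank of 95.2 and 94.7 in fed and fasting liver and 94.4 and 94.3 in kidney, and in the 12 libraries of the other tissues it ranged from 79.0 in fasting lung to 89.5 in fed white adipose tissue. The hepatocyte list had means of 92.0 and 92.9 in liver and 53.8 and 54.8 in kidney, and from 21.7 in fed heart to 35.8 in fed white adipose tissue elsewhere. For hepatocyte genes kidney thus stood between liver and the other tissues in these libraries.

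Among 27690 liver-specific regions 1, at chr1:24613150-24616169, consisted of 30-base words that are also in the mitochondrial sequence, and among 51024 kidney-specific regions 0 did.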
